A study of Rattus norvegicus with 36 samples.

Results

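Ptgs2 encodes cyclooxygenase-2, the inducible enzyme that commits arachidonic acid to prostaglandin synthesis. It was chosen by its Ensembl ID, ENSRNOG00000002525, as 1 of 2 inducible inflammatory enzymes. The other, the inducible nitric oxide synthase Nos2 (ENSRNOG00000011023), matched 0 rows of the tables and was not analysed here, so 1 gene of the 32883 in the count table is described. The material was rat lung cut into thin slices and kept alive in culture, a model set up to evaluate anti-fibrotic drugs. Ptgs2 was followed across 6 groups of 6 libraries. Slices without any treatment were taken at the labelled times 0 and 72, and the other 4 groups were all at 72. One of these had TGFb alone, a growth factor that drives fibrosis, and 3 had TGFb together with Pirf, Nint or Sora. The drug labels are read as pirfenidone, an anti-fibrotic drug, and nintedanib and sorafenib, both kinase inhibitors. The labels give no time unit, no dose, no strain, no sex and no age, and they do not tell whether each library had its own animal. The p-values therefore rest on variation among these libraries, part of which may be technical. Each of the drug groups also contained TGFb, so no drug was measured without it, and no library came from TGFb at time 0.

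In most tissues Ptgs2 is nearly silent until cytokines, growth factors, bacterial products or injury switch it on, and its short-lived mRNA then rises quickly and falls again. Its partner Ptgs1 is made more constantly, and both enzymes feed the same prostaglandin synthases. In the lung the main product, prostaglandin E2, is known to restrain fibroblasts, while other products widen or narrow vessels and airways. Macrophages, fibroblasts, epithelium and endothelium can all make the enzyme. Slices hold all of these cells, and in such bulk RNA fewer cells of a type and less RNA per cell cannot be told apart.

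The region just ahead of the gene is shown because it is where signals that induce Ptgs2 are read in other systems. The 250 bases before the transcription start come from RefSeq on the build GRCr8, chr13:64713813-64714062 on the plus strand, which is a later build than the Rnor_6.0 named for the counts. Capitals mark the matches to the motifs searched.

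Ptgs2 promoter: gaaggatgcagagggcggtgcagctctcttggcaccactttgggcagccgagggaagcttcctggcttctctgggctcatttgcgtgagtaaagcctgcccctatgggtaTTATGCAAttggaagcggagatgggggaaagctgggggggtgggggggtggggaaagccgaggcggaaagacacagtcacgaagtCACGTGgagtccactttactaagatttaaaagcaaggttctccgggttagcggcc

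Both strands were searched for 5 motifs, and the 2 matches found do not overlap. The core of C/EBP sites, TTNNGNAA, matched once as TTATGCAA, 140 to 133 bases before the start, and 37.2% of the 33469 rat promoters of this length hold such a match. An E-box, CACGTG, lies 55 to 50 bases before the start and reads the same on both strands, and 5.59% of promoters hold one. The TATA box TATAAA (12.9% of promoters), the cyclic AMP response element TGACGTCA (1.59%) and the NF-kB consensus (6.33%) had no match in this window. Only full matches to these patterns in this window were sought, so variant or more distant sites were not covered. These matches describe letters, and nothing about binding was measured.

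Ptgs2 was counted in all 36 libraries. Library totals lay between 15886927 and 32932981 counts, of which 497 to 17318 were Ptgs2 reads, so counting error was 0.76% to 4.49% of a value. Levels are given as CPM, counts scaled to a common library size, after TMM scaling, a correction for differences in library composition. Group means, with SD and n = 6 throughout, were 453 ± 267 CPM in untreated slices at 72, 378 ± 234 with TGFb alone, 370 ± 106 with TGFb and Nint, 286 ± 200 at time 0, 118 ± 105 with TGFb and Sora, and 42.7 ± 27.3 with TGFb and Pirf. Neighbours among the first 4 groups in this order did not differ beyond their spread. Nint differed from time 0 by 0.37 on the log2 scale (SE 0.57, adjusted p = 0.558, 77.7% of genes called). The same held for the pairs that are not neighbours, TGFb alone against time 0 (0.40, adjusted p = 0.526, 77.3% of genes called) and Nint against untreated slices at 72 (-0.29, adjusted p = 0.763, 26.4% called). Sora lay below time 0 and Pirf below Sora at an adjusted p just under 0.05, and both of those calls depended on single libraries, as given further on.

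**Figure D1:**
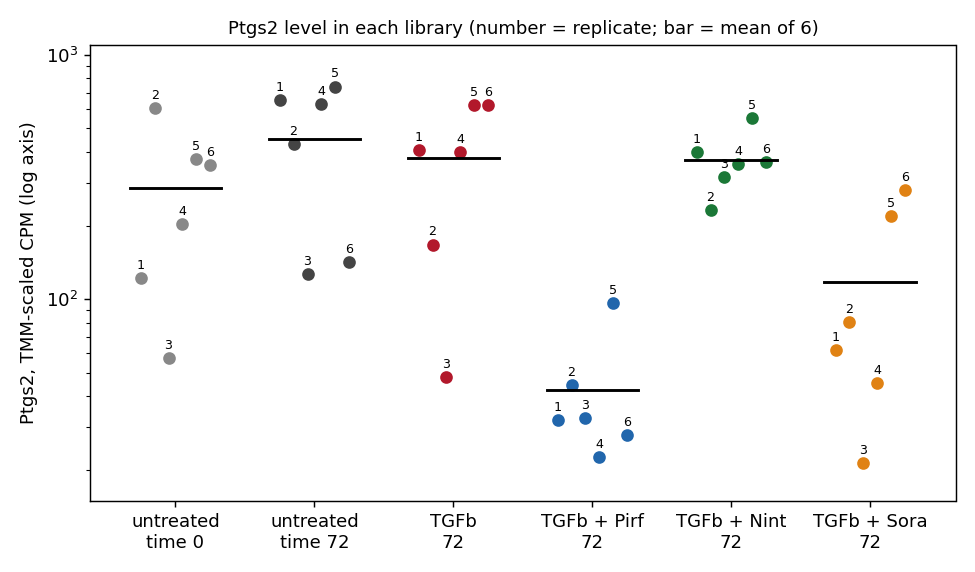
Ptgs2 level (TMM-scaled CPM, log axis) in each of the 36 libraries, by group; numbers are replicate numbers and bars are means of 6. The 6 Pirf libraries lie between 22.7 and 96.4 CPM, and every Nint library lies at 231.9 CPM or higher.

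Culture alone was examined by comparing untreated slices at 72 with those at 0. At time 0 the lowest, median and highest libraries stood at 57.4, 278 and 606 CPM. At 72 they stood at 126.3, 529 and 741. The groups overlapped over most of their range, and in 27 of the 36 pairings of a library at 72 with one at 0 the library at 72 was higher. The log2 fold change was 0.67 (SE 0.58, 95% interval -0.50 to 1.84, adjusted p = 0.299), which did not pass the threshold of 0.05. For comparison, 73.2% of the 15644 genes tested were called in that comparison. With each library's scaling factor as a covariate, an alternative chosen after seeing the data, the log2 fold change was 1.35 (adjusted p = 0.0185).

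The response to TGFb was read against untreated slices at 72. With TGFb alone the lowest, median and highest libraries were 48.1, 403 and 622 CPM. Both groups held libraries with high and low levels: 4 of 6 untreated libraries and 4 of 6 with TGFb were at 399 CPM or more, and the others were at 167.4 or less. The log2 fold change was -0.26 (SE 0.57, 95% interval -1.43 to 0.90, adjusted p = 0.79), and 26.4% of genes were called. The interval runs from a level 2.69-fold lower with TGFb to one well above the untreated level, so at this spread neither a moderate fall nor a moderate rise can be told from no change. With the scaling factor as a covariate the log2 fold change was -0.99 (adjusted p = 0.136).

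Pirf was compared with TGFb alone to see how the drug moved the enzyme's mRNA. The 6 Pirf libraries stood at 22.7, 27.7, 32, 32.8, 44.4 and 96.4 CPM. All but the highest, replicate 5, lay below the lowest library with TGFb alone, replicate 3 at 48.1 CPM, and the groups overlapped through those 2 libraries only. Ptgs2 fell by 3.14 on the log2 scale (SE 0.62, adjusted p = 9.97e-05), an 8.83-fold lower level with a 95% interval of 3.66 to 21.3. Pirf called 26.4% of genes lower, and 5.68% lower by at least 2-fold. Among all genes tested, 0.409% had a more negative fold change. The fall passed the threshold without any one of the 12 libraries (log2 fold changes -3.55 to -2.94) and in an exact permutation test of 6 against 6 libraries (p = 0.00433, adjusted p = 0.013 over 15 pairs of groups).

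The level with Pirf was also below that of slices that had no TGFb. Against untreated slices at 72 the log2 fold change was -3.41 (SE 0.63, adjusted p = 3.57e-05), a level 10.6-fold lower, and the highest Pirf library lay below the lowest untreated one. In that comparison 26% of genes were called lower. Against time 0 it was -2.74 (SE 0.61, adjusted p = 0.000167), with 35.6% of genes called lower. Replicate 5 with Pirf exceeded replicate 3 at time 0, and the other 5 Pirf libraries lay below all of time 0.

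Within groups, a library measure moved together with Ptgs2. The TMM factor, which rises when a few abundant genes take a smaller share of a library, was 1.07 ± 0.00869 with Pirf, 1.03 ± 0.0435 with Sora, 1.01 ± 0.0478 in untreated slices at 72, 0.967 ± 0.0275 with Nint, 0.964 ± 0.051 with TGFb alone and 0.962 ± 0.0385 at time 0. Over the 36 libraries, as deviations from group means, a higher factor went with less Ptgs2 (Pearson r = -0.65, Spearman rho = -0.63, permutation p = 0.00049 and 0.00071, adjusted p = 0.00147 and 0.00213 over 3 measures). Without the 2 libraries farthest from the median factor r was -0.63. The permutations for all 3 library measures treated the groups as independent of each other. Yet replicate 5 lay above its group mean of Ptgs2 in 6 of 6 groups, and replicate 3 lay below in 6 of 6. If a shared number marks a shared animal or batch, which the labels do not state, these permutation p-values may be too small. Between groups the match was partial. Pirf and Sora had the highest mean factors and the least Ptgs2. Untreated slices at 72 had the most Ptgs2 (453 CPM) with a factor of 1.01, and time 0 had the lowest factor with 286 CPM. Within groups, the percentage of counts that genes absent from the authors' protein-coding table took went the other way (r = 0.51, rho = 0.50, permutation p = 0.00432 and 0.00542, adjusted p = 0.00648 and 0.00813), and r was 0.44 without the 2 farthest libraries. Between groups it did not follow Ptgs2 in that direction: it was highest with Pirf (13.6 ± 0.728%) and lowest in untreated slices at 72 (11.2 ± 1.12%), the groups with the lowest and the highest mean Ptgs2. Total counts showed little relation (r = 0.033, rho = -0.0021, permutation p = 0.856 and 0.991, adjusted p = 0.856 and 0.991; r = -0.052 without the 2 farthest).

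The scaling itself made little difference to Ptgs2, since the fall with Pirf was -2.96 on the log2 scale without any scaling factors (adjusted p = 0.000121). With the factor as a covariate it was -1.15 (adjusted p = 0.172), so the call was lost, as it was against Nint and against time 0 (log2 fold changes -1.28 and -0.79, adjusted p = 0.115 and 0.296). The 6 Pirf factors, 1.06 to 1.08, lay entirely above those with TGFb alone, 0.894 to 1.02, so the drug and the library measure cannot be told apart between those groups. Untreated slices at 72 had factors of 0.952 to 1.07, of which only the highest, replicate 3, reaches into the Pirf range. That library had the lowest Ptgs2 of its group, 126.3 CPM. Against untreated slices at 72 the Pirf level remained lower with the covariate (log2 fold change -2.14, adjusted p = 0.00187). For the remaining untreated libraries this fit extends a straight line beyond their factors, so it cannot tell the drug and the library measure apart either.

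**Figure D2:**
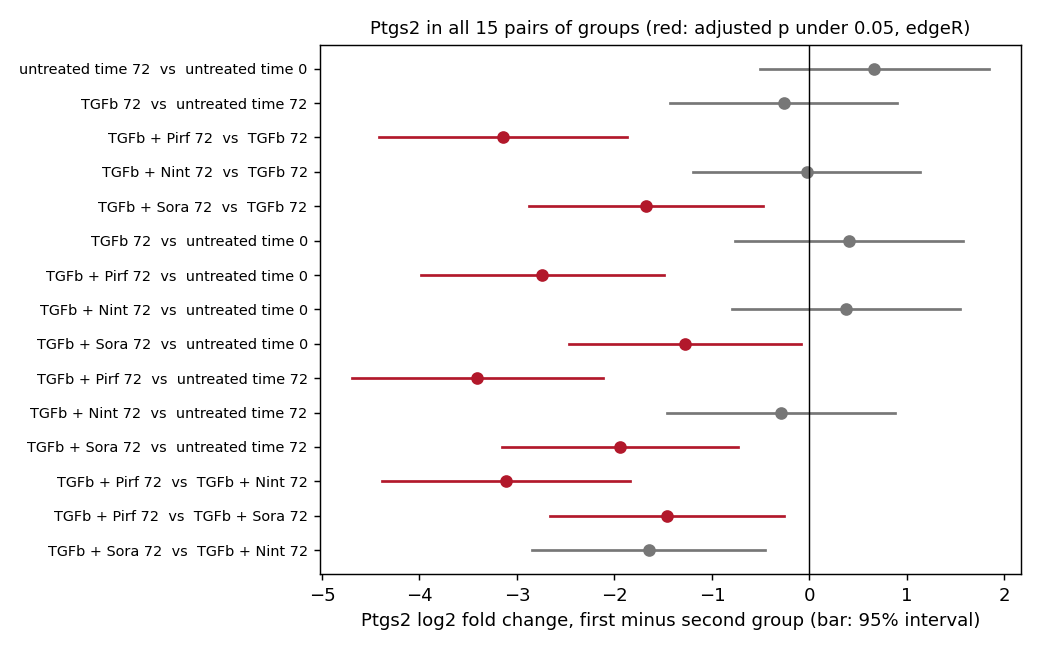
Ptgs2 log2 fold change (first minus second group) with its 95% interval in all 15 pairs of groups, red where the adjusted p was under 0.05. The 4 comparisons of Pirf with untreated slices, TGFb alone and Nint lie between -3.41 and -2.74, and the 6 comparisons among untreated, TGFb-alone and Nint groups include 0.

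Nint with TGFb was compared with TGFb alone in the same way. Its lowest, median and highest libraries were 231.9, 361 and 551 CPM, all within the range of TGFb alone. The log2 fold change was -0.03 (SE 0.57, 95% interval -1.19 to 1.14, adjusted p = 0.995), where 3.09% of genes were called. Its sign changed with the processing, so no direction is given. Levels up to 2.29-fold lower than with TGFb alone remain within the interval. The Nint libraries were the most even of the 6 groups, with a coefficient of variation of 28.5% and a 2.38-fold span from lowest to highest, whereas the libraries with TGFb alone spanned 12.9-fold. This difference in spread was not tested.

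Sora with TGFb gave 21.4, 45.6, 62.1, 80.7, 219 and 279 CPM. Replicates 5 and 6 stood at the upper end, and 2 libraries lay below the lowest with TGFb alone. The group had the widest span of the 6, 13-fold. Ptgs2 fell by 1.68 on the log2 scale (SE 0.59, adjusted p = 0.0491), a 3.2-fold lower level with a 95% interval of 1.4 to 7.35. Sora called 8.37% of genes lower, and 0.275% of genes had a more negative fold change. That call was marginal. It was lost without TGFb-alone replicate 1, 4, 5 or 6 or Sora replicate 1, 2, 3 or 4 (adjusted p = 0.0735 to 0.113), and in an exact permutation test of 6 against 6 libraries (p = 0.0519, adjusted p = 0.111). With the scaling factor as a covariate the log2 fold change was -0.68 (adjusted p = 0.495).

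Against untreated slices at 72 the level with Sora was also lower, at -1.94 on the log2 scale (SE 0.59, adjusted p = 0.0158), where 11.9% of genes were called lower. It passed the threshold without any one library (adjusted p = 0.00504 to 0.0417) and with the covariate (log2 fold change -1.68, adjusted p = 0.0111). In 4 of the 36 pairings the Sora library was the higher one. Against time 0 the log2 fold change was -1.28 (SE 0.58, adjusted p = 0.047), where 36.9% of genes were called lower. This call was lost without time-0 replicate 2, 5 or 6 or Sora replicate 1, 2, 3 or 4 (adjusted p = 0.075 to 0.162).

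The 3 drugs were compared with each other, over the 3 possible pairs, at doses that the labels leave out. Pirf lay below Nint (log2 fold change -3.11, SE 0.62, adjusted p = 9.47e-05), with 26.5% of genes called lower, and no Pirf library reached the lowest Nint library. Pirf against Sora gave a log2 fold change of -1.46 (SE 0.59, 95% interval -2.66 to -0.27, adjusted p = 0.0445), with 21.8% of genes called lower. No Pirf library lay below the lowest Sora library, and in 9 of the 36 pairings the Pirf library was the higher one. This call was lost without Pirf replicate 1, 2, 3, 4 or 6 or Sora replicate 5 or 6 (adjusted p = 0.065 to 0.175) and in the exact permutation test of 6 against 6 libraries (p = 0.121, adjusted p = 0.202).

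The difference between the kinase inhibitors did not pass the threshold. Sora against Nint gave a log2 fold change of -1.65 (SE 0.59, 95% interval -2.85 to -0.45, adjusted p = 0.0627), and 5 of 6 Sora libraries lay below the lowest Nint library, where 4.56% of genes were called lower. The remaining one, replicate 6, was the only Sora library above any Nint library. In the exact permutation test of 6 against 6 libraries the 2 groups differed (p = 0.00433, adjusted p = 0.013). That adjustment was over 15 pairs of groups, whereas the edgeR p of 0.00838 was adjusted over all genes. In edgeR the 2 groups also differed without Sora replicate 5 or 6 (adjusted p = 0.0321 and 0.0234). Without any one of the other 10 libraries they did not pass (adjusted p up to 0.136), nor with the scaling factor as a covariate (log2 fold change -0.82, adjusted p = 0.481). The Pirf, Nint and Sora comparisons with TGFb alone share the same 6 control libraries.

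**Figure D3:**
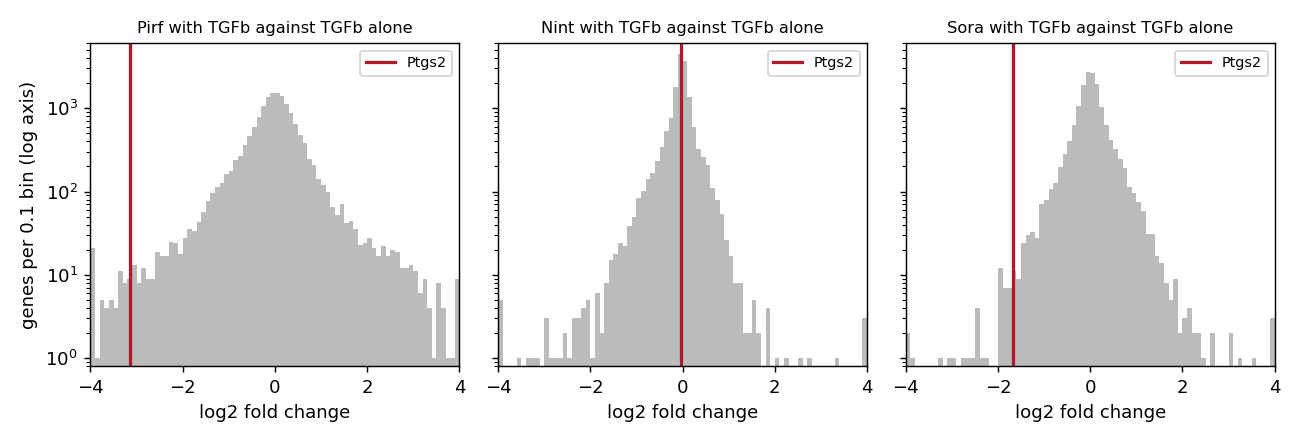
Number of genes (log axis) by log2 fold change in bins of 0.1, for each drug with TGFb against TGFb alone; values past 4 in either direction are counted in the outermost bins and the red line is Ptgs2. Ptgs2 lies at -3.14 with Pirf and -1.68 with Sora, in the lower tail of both distributions, and at -0.03 with Nint.

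Libraries of the same group differed widely in Ptgs2. The SD of log2 CPM within groups, pooled over the 6 groups, was 1.12, and the median over all genes tested was 0.204, with 97% of genes below Ptgs2. The biological coefficient of variation that edgeR estimated for Ptgs2 was 0.664, where the trend for genes of its abundance was 0.165. Coefficients of variation within groups ran from 28.5% with Nint to 89.1% with Sora, far above the counting error. Some of this spread followed the replicate number. The library numbered 5 lay above its group mean of log2 CPM in 6 of 6 groups, by 1.05 on average, and was the highest in 4. The library numbered 3 lay below in 6 of 6, with a mean deviation of -1.39, and was the lowest in 4. The labels do not say what a shared number stands for.

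Genes whose pattern over the 36 libraries was most like that of Ptgs2 could be given by ID only. ENSRNOG00000016419 had the highest correlation of log2 CPM with Ptgs2 among 15643 genes (Pearson r = 0.92, Spearman rho = 0.906). Its level was 64.6 ± 4.04 CPM with Pirf, 87.1 ± 27 with Sora and 110.5 to 116.7 on average in the other 4 groups. ENSRNOG00000017720 came next (r = 0.908, rho = 0.888), with 54.4 ± 8.61 CPM with Pirf, 73.6 ± 49.4 with Sora and 111.6 ± 32.8 at time 0. It stood at 176.5 ± 73 with TGFb alone and 178 ± 106.8 in untreated slices at 72. Unlike Ptgs2, this ID was highest with Nint, at 208 ± 29.4. Both IDs also followed Ptgs2 among libraries of the same group, with correlations of the deviations from group means of 0.869 and 0.851. With Pirf against TGFb alone they fell by 0.85 and 1.70 on the log2 scale (SE 0.18 and 0.37, adjusted p = 0.000172 and 0.000312), less than the 3.14 of Ptgs2. With Sora, the second fell by 1.26 (adjusted p = 0.018), and the first had a log2 fold change of -0.42 (adjusted p = 0.0986). In all, 126 genes had a correlation with Ptgs2 above 0.8 over the libraries, and 109 had one above 0.8 in the deviations from group means. In the opposite direction, 70 genes had a correlation below -0.8 over the libraries and 63 in the deviations. These correlations describe libraries that share groups and composition, and these genes were picked for likeness.

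**Figure D4:**
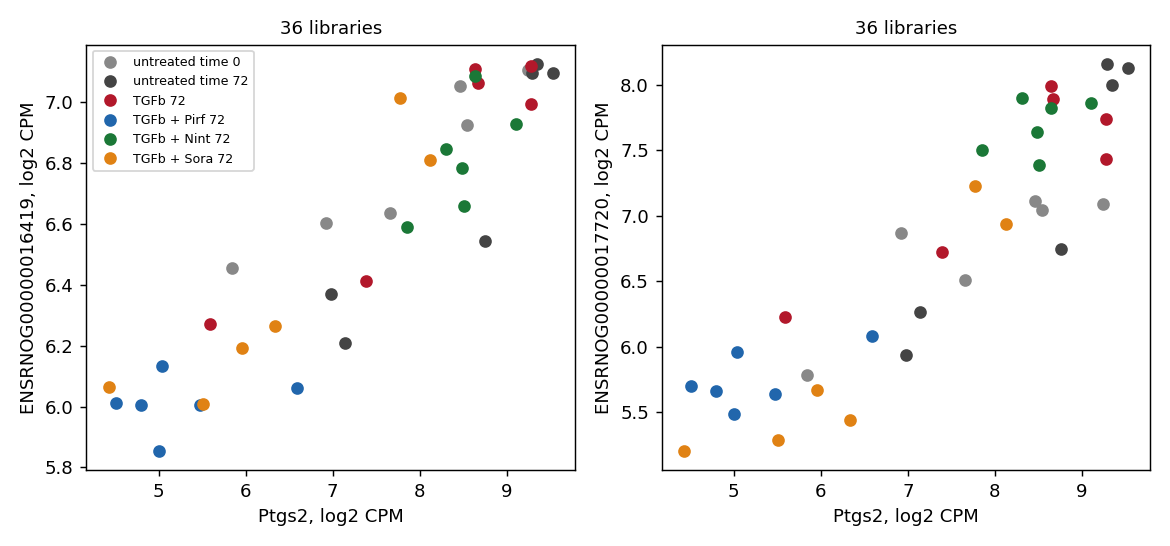
Log2 CPM of the 2 IDs most like Ptgs2 against log2 CPM of Ptgs2, 1 point per library, coloured by group. The Pirf libraries and 4 of the 6 Sora libraries sit at the lower left in both panels. Replicate 3 at time 0 and replicate 3 with TGFb alone, both without a drug, lie near them, at 57.4 and 48.1 CPM of Ptgs2. Among the Pirf libraries ENSRNOG00000016419 lies within 57.8 to 70.1 CPM, and the highest of them in Ptgs2, replicate 5, is not the highest in this ID.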

How the data were processed

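RNA was sequenced from 36 rat lung slice cultures after ribosomal RNA removal with a stranded kit, per the labels' protocols. The submitters' processing notes name RSEM, edgeR and the build Rnor_6.0. The aligner, the annotation and the strandedness of counting are not stated there. The authors deposited expected counts from RSEM, without scaling; 8.59% of values were not whole, but all 36 Ptgs2 values were. The deposited log2 CPM table holds the authors' scaled log2 values for 14984 coding genes and served as an alternative.

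Groups came from the titles. Expected counts were rounded and analysed with edgeR 4.0.16 in R 4.3.3: filterByExpr (15644 genes kept), TMM, 1 quasi-likelihood fit of all 36 libraries with a mean per group, glmQLFTest for the 15 pairs of groups, and Benjamini-Hochberg adjustment over all genes. Every adjusted p is from this test unless another is named. SE is the log2 fold change over the square root of F, and log2 CPM used a prior count of 2. Correlations with library measures used 100000 permutations within groups. The steps were tested on simulated data. No 2 libraries were identical, and within groups the smallest chi-square per degree of freedom was 13.1. In each of the 15 pairs of groups, 0 to 2 of 6 same-numbered pairs deviated together over all genes (correlation above 0.1, the highest 0.561). The numbers were not taken as pairs in the main fit, although these correlations cannot tell whether a number stands for a shared animal. A replicate block, given below, changed the Ptgs2 calls of Sora against Nint and of Pirf against Sora.

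The reference gene table matched 0 of the count table's IDs, so planned lists of nitric oxide, prostaglandin, inducer and cell type marker genes were not used, and the labelled tissue was not checked against markers. The name Ptgs2 comes from the selection rule, which named it in every comparison, with the 2 IDs of highest correlation over the 36 libraries. Ptgs2 and the lists were chosen with earlier results of these data known. Alternatives were limma 3.58.1, DESeq2 1.42.0, other scalings and filters, fewer libraries, a replicate block and a fold of 1.2.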

Additional observations from a re-analysis of the deposited data

Results flagged for a closer look

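In the Pirf group, replicate 5 stood apart from the other 5 libraries at 96.4 CPM of Ptgs2, with the others at 22.7 to 44.4. The gap to its nearest neighbour was 0.706 of the group's whole range, past Dixon's 95% critical value for 6 values. On the log2 scale the ratio was 0.537, which is not past it. Chance flags about 1 in 20 groups if values are normally distributed, which was not checked on either scale. On each scale 6 groups were tested. Leaving it out moved the fall against TGFb alone to -3.55 on the log2 scale.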

How the results depend on the processing

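For Ptgs2, 15 pairs of groups were recomputed under 11 alternatives, and 130 of the 165 values kept their direction and their side of the threshold. The lower levels with Pirf and with Sora against untreated slices at 72 passed under all 11. Pirf against TGFb alone, time 0 and Nint passed under all but the scaling factor as a covariate, which gave log2 fold changes of -1.15, -0.79 and -1.28. With that covariate, chosen after seeing the data, other values were -0.68 (Sora against TGFb), -0.47 (Pirf against Sora), -0.32 (Sora against time 0), 0.13 (Nint against TGFb), -0.99 (TGFb against untreated at 72), -0.86 (Nint against untreated at 72), -0.82 (Sora against Nint) and 1.35 (72 against 0, now called).

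Sora against TGFb alone was lost with no filter (-1.64), with its 12 libraries alone (-1.67), against a fold of 1.2 (-1.68) and in the exact permutation test (-1.79). Pirf against Sora was lost with voom (-1.10), the deposited log2 CPM (-1.12), the exact permutation test (-1.12), no filter (-1.47), no scaling factors (-1.37), its 12 libraries alone (-1.46) and a fold of 1.2 (-1.46). Sora against time 0 was lost with the exact permutation test (-1.43), no filter (-1.29), no scaling factors (-1.20), 12 libraries (-1.24) and a fold of 1.2 (-1.28). The call of Sora against TGFb alone was kept under 6 of the 11 alternatives. That of Pirf against Sora was kept under 2, and that of Sora against time 0 under 5. Sora against Nint became called with DESeq2 (-1.66), the exact permutation test (-2.13), voom (-2.13) and the deposited log2 CPM (-2.14). Nint against TGFb alone, never called, changed sign with no filter (0.0101), voom (0.34), the exact permutation test (0.34) and the deposited log2 CPM (0.36). The causes were not tested.

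With the replicate number as a block, Sora against Nint was called (-2.06, adjusted p = 0.00942), Pirf against Sora was not (-1.18, adjusted p = 0.0574), and Nint against TGFb was 0.29; no other Ptgs2 call changed, and the genes called went from 8061 to 8121 for Pirf, 483 to 487 for Nint and 2406 to 2602 for Sora. Over all genes, 0 to 2 of 6 same-numbered pairs correlated above 0.1 in each pair of groups. In each, 0 to 2 of 6 libraries correlated best with their own number. These correlations cannot tell whether a shared number stands for a shared animal or batch, which the labels do not state.

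Leaving out 1 library gave log2 fold changes of -2.14 to -1.45 for Sora against TGFb, -1.88 to -1.003 for Pirf against Sora, -1.73 to -0.91 for Sora against time 0, -2.11 to -1.44 for Sora against Nint and -0.24 to 0.17 for Nint against TGFb. Numbers of genes called that moved by over 1.5 times were, against a fold of 1.2, 99 for Nint (483 in the main test), 4099 for Pirf (8061), 410 for Sora (2406) and 1779 for TGFb (4130), 1423 for Sora in 12 libraries, 781 for Nint and 1469 for Sora with the covariate, and 309 and 299 for Nint without TGFb-alone replicate 2 or 3. The planned Nos2 results and the change of Ptgs2 relative to Nos2 were not run. Depth is no limit for Ptgs2; the spread between libraries is.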
